A study of Mus musculus with 2 samples.

Results

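Inhibitory interneurons release GABA and hold the firing of cortical excitatory neurons in check. The 10 genes described here are 3 genes for making GABA and loading it into vesicles (*Gad1*, *Gad2* and *Slc32a1*), the calcium-binding protein gene *Pvalb*, and 6 genes for secreted peptides (*Sst*, *Vip*, *Npy*, *Cck*, *Crh* and *Cort*). They were chosen by name, with a rule that uses no measured value, and are 10 of 37303 genes in the deposited gene table, with 19 of 90835 rows in the isoform table. All 10 had a mean of at least 1 FPKM, the lower limit used here for a gene to count as measured, and 13042 genes of the table did. FPKM is the number of sequenced fragments per kilobase of gene model per 1000000 mapped fragments, a value per length that allows levels to be set side by side between genes. Comparison between the libraries also depends on how each is scaled.

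The mRNA came from the cerebral cortex of B6 mice, and by the methods of the study from the right cortical hemisphere of males at postnatal day 56. There were 2 groups with 1 library each. The WT library came from wild-type mice. The KO library came from *Rbfox3*-/- mice, homozygous for the C57BL/6N-Rbfox3 tm1a(EUCOMM)Hmgu allele, and the WT controls were their littermates from matings of heterozygotes. No treatment was given to either group in the labels, and the number of mice behind each library is not given there. RBFOX3, also known as NeuN, is a neuronal RNA-binding protein that regulates splicing. *Rbfox3* measured 57.3 FPKM in WT against 6.46 FPKM in KO, 8.87-fold lower, which fits the labels. With 1 library per genotype there is no replicate check, no test between genotypes was possible, and every difference below is a difference between these 2 libraries. In addition, a bulk value cannot tell fewer cells of a type from less RNA per cell.

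GAD enzymes convert glutamate to GABA, and the vesicular transporter encoded by *Slc32a1* loads GABA into synaptic vesicles. Cortical interneurons fall into classes by what else they make. Parvalbumin cells are fast-spiking and innervate cell bodies and axon initial segments, somatostatin cells innervate dendrites, and VIP cells mostly innervate other interneurons. *Npy* and *Cort* RNA is found largely in somatostatin cells, although *Npy* is also made by neurogliaform cells. *Crh* is found in subsets of somatostatin and VIP cells. *Cck* marks a class of basket cells but is also transcribed in many excitatory neurons, so its level in whole cortex is not an interneuron level alone.

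Peptide genes are known for control by cyclic AMP through a palindromic response element, TGACGTCA, that was described in the somatostatin promoter. Sequences are shown here to place the element in the genes whose levels follow. Promoters of 300 bases (250 before and 50 after the start) from RefSeq, build GRCm38.p6, were available for 9 of the 10 genes and not for *Crh*. The palindrome was found in 1 of the 9, *Sst*, against 1.79% of 32851 promoters. The shorter element, TGACG or its complement CGTCA, which lies within the palindrome as well, was found in 5 of the 9, against 20.8% of all promoters. It was searched on both strands. The 30 bases around the element are given below on the strand of the gene, 5′ to 3′, with the element in capitals, to show the bases on either side of it in each gene.
Sst, chr16:23890874-23890903, minus strand: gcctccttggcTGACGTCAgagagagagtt
Vip, chr10:5639127-5639156, plus strand: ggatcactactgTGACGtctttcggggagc
Cck, chr9:121495724-121495753, minus strand: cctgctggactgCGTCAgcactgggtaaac
Cort, chr4:149126764-149126793, minus strand: ctccggcttgtgCGTCAccgcgtgagtgtg
Gad2, chr2:22622282-22622311, plus strand: ccatttcccttcCGTCActctctcatctcc

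The first base of the element lay 48 bases before the RefSeq start in *Sst*, 79 in *Vip*, 47 in *Cck*, 18 in *Cort* and 33 in *Gad2*. The GENCODE vM21 positions given below for *Sst* and *Gad2* begin upstream of the RefSeq start and include the bases shown. A match to these letters is a description of the sequence and not of binding.

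*Sst* and *Cort* encode closely related peptides, which matters here because their RNA could be confused where the coding sequences are alike. The stretch that encodes the core of each cyclic peptide, taken from GENCODE vM21 transcripts, is shown with capitals for codons that encode the same residue in both genes.
Sst: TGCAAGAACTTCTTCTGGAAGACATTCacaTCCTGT
Cort: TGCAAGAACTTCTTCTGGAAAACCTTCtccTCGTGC

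Of these 12 codons 11 encode the same residue, and 30 of 36 bases are identical. The whole coding sequences have 116 codons in *Sst* and 109 in *Cort*.

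The levels of the 10 genes spanned from 292 FPKM (*Cck*) to 1.51 FPKM (*Cort*) in the WT library. In descending order the WT library had *Cck*, *Sst*, *Npy*, *Gad1*, *Gad2*, *Vip*, *Pvalb*, *Slc32a1*, *Crh* and *Cort*. In the KO library *Gad1* stood above *Npy* and *Vip* above *Gad2*, and the order was otherwise the same. *Gad2* and *Vip* were neighbours at the same level in WT, both at 44.5 FPKM. *Cck* ranked 122 among all genes of the WT table and 108 in the KO table, whereas *Cort* ranked 12180 and 12656. Spread over animals is not known, so whether neighbours in this order differ was not tested.

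**Figure D1:**
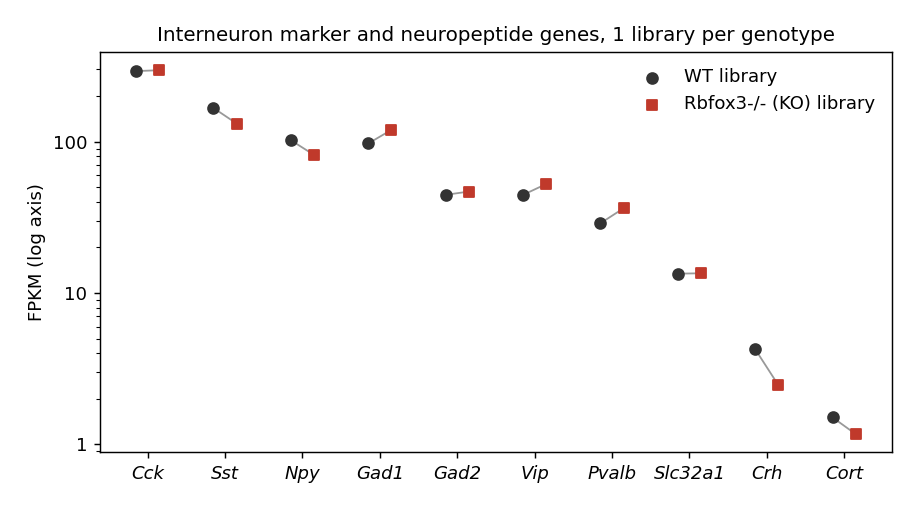
FPKM of the 10 genes on a log axis, in descending order of the WT library, with a circle for the WT library and a square for the KO library (1 library each, no error bars). Levels ran from 292 to 1.51 FPKM in WT, and the lines between the libraries slope down for *Sst*, *Npy*, *Crh* and *Cort*.

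All but 1 of these genes differed by less than 1.5-fold between the libraries. On the log2 scale of KO + 1 over WT + 1 FPKM, 6 of the 10 were above 0 and 4 below, and 3 were within 0.1 of 0. Their median was 0.01, and the median of all measured genes was 0.02. None was at least 1.5-fold higher in KO on this scale, where 1.36% of measured genes were. A single gene, *Crh*, was at least 1.5-fold lower, where 1.3% of measured genes were. None differed 2-fold in either direction, where 1.07% of measured genes did. Across all measured genes 177 were past 1.5-fold higher and 169 lower with the deposited scaling. When each library was scaled to the same total over genes above 0 in both, 307 were higher and 116 lower, and none of the 10 genes was past 1.5-fold.

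**Figure D2:**
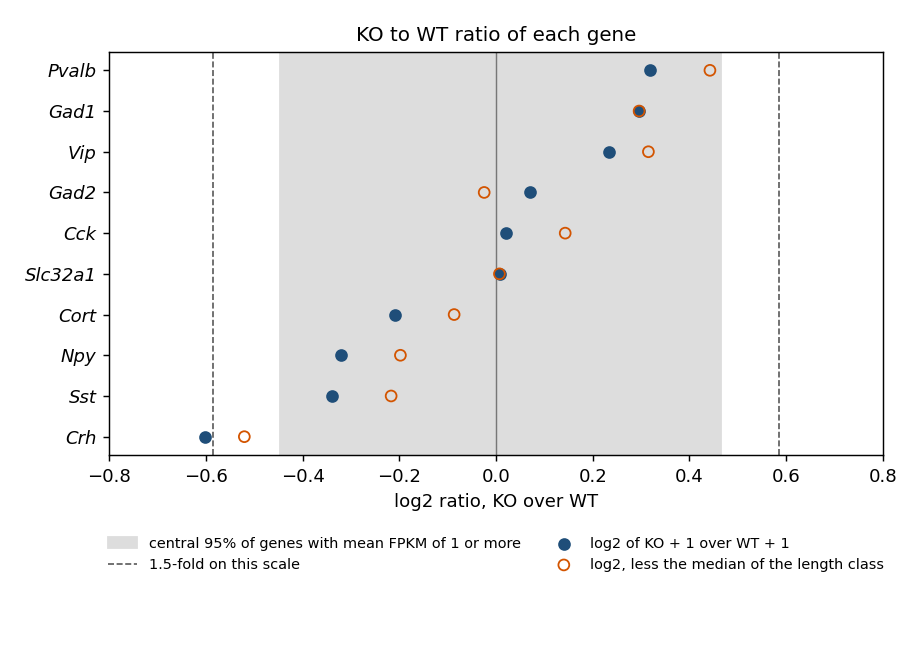
Log2 ratio of KO + 1 over WT + 1 FPKM for each of the 10 genes (filled) and the same ratio less the median of genes of like transcript length (open), with the central 95% of measured genes in grey and 1.5-fold dashed. Only *Crh* passes the dashed line, at -0.60, and it lies inside it at -0.52 after the median of its length class is taken away.

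*Gad1*, which encodes the GAD enzyme that makes most GABA in the brain, was the gene of the GABA-producing group with the larger difference. *Gad1* (ENSMUSG00000070880, chr2:70553072-70602014, plus strand, as are all positions below in the GENCODE vM21 annotation of GRCm38) was at 97.2 FPKM in WT against 120 FPKM in KO, 23.1% higher, a log2 ratio of 0.30. Among genes averaging 10 FPKM or more, 10.9% were as far from 0 as this. *Gad2* (ENSMUSG00000026787, chr2:22622205-22693874, plus strand), whose enzyme is associated with nerve terminals, was at 44.5 FPKM in WT against 46.8 FPKM in KO, a log2 ratio of 0.07. *Slc32a1* (ENSMUSG00000037771, chr2:158610767-158615748, plus strand) was at 13.4 FPKM in WT against 13.5 FPKM in KO, a log2 ratio of 0.01. Thus *Gad1* differed and the other GABA genes were nearly level, and *Gad1* went from 2.18 to 2.56 times the level of *Gad2*. The sign for *Gad2* and *Slc32a1* depended on scaling: *Gad2* was at -0.02 after centring on genes of like transcript length, and *Slc32a1* at -0.01 after centring on the median of genes of at least 10 FPKM. As a scale for these levels, *Slc17a7*, the vesicular glutamate transporter of cortical excitatory neurons, was 20.5 times as high as *Slc32a1* in WT and 22.4 times in KO. It was 2.84 times as high as *Gad1* in WT and 2.53 times in KO. The direction thus depended on which GABA gene *Slc17a7* was set against.

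*Pvalb* (ENSMUSG00000005716, chr15:78191114-78206400, minus strand), the calcium buffer of fast-spiking cells, was at 28.9 FPKM in WT against 36.3 FPKM in KO, 25.6% higher, with a log2 ratio of 0.32. *Vip* (ENSMUSG00000019772, chr10:5639218-5647617, plus strand), which encodes a secretin-family peptide, was at 44.5 FPKM in WT against 52.5 FPKM in KO, 1.18-fold higher, with a log2 ratio of 0.23. *Pvalb*, *Vip* and *Gad1* were thus the genes on the higher side in KO by more than 0.1, and none of them reached 1.5-fold. Relative to *Gad1* in the same library, *Pvalb* was at 0.297 in WT and 0.304 in KO, and *Vip* was at 0.458 in WT and 0.439 in KO.

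*Sst* (ENSMUSG00000004366, chr16:23889573-23890958, minus strand), the peptide that inhibits hormone and transmitter release, was at 167 FPKM in WT against 132 FPKM in KO, 21.1% lower, with a log2 ratio of -0.34. Of genes averaging 10 FPKM or more, 7.67% were as far from 0. *Npy* (ENSMUSG00000029819, chr6:49822710-49829507, plus strand), which encodes neuropeptide Y, was at 102 FPKM in WT against 81.6 FPKM in KO, 20.1% lower, with a log2 ratio of -0.32, and 9.07% of such genes were as far from 0. *Cort* (ENSMUSG00000028971, chr4:149125034-149126763, minus strand), which encodes cortistatin, was at 1.51 FPKM in WT against 1.17 FPKM in KO, 22.5% lower. Its log2 ratio was -0.21 on the scale with 1 FPKM added and -0.37 with nothing added, and 33.1% of genes between 1 and 10 FPKM were as far from 0 as the former. *Sst*, *Npy* and *Cort* thus differed in the same direction, by 20.1% to 22.5%. All 3 have short transcripts, which were lower in KO in general as given below. Less the median of their length class they were at -0.22, -0.20 and -0.09. Whether the difference belongs to somatostatin cells was not tested. *Npy* was 0.613 times *Sst* in WT and 0.620 times in KO, and *Cort* was 0.00905 times *Sst* in WT and 0.00889 times in KO. How reads from the stretch that is alike in *Sst* and *Cort* were counted is not stated, and their part in the *Cort* values was not tested. In the same libraries the summed level of striatal medium spiny neuron markers was 292 FPKM in WT against 162 FPKM in KO, and its part in the *Sst* and *Npy* values was not tested either.

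*Crh* (ENSMUSG00000049796, chr3:19693401-19695396, minus strand), corticotropin-releasing hormone, had the largest ratio of the 10 genes. It was at 4.25 FPKM in WT against 2.46 FPKM in KO, 1.73-fold lower, with a log2 ratio of -0.60 with 1 FPKM added and -0.79 with nothing added. Of genes between 1 and 10 FPKM, 3.36% were as far from 0. *Crh* was also the second lowest of the 10 genes in level, with 5.61 fragments per 1000000 mapped fragments in WT and 3.25 in KO when FPKM was multiplied by the length of its transcript in kilobases. For comparison, *Sst* had 120 such fragments in WT and 94.8 in KO, and *Cort* had 1.02 in WT and 0.791 in KO. The lengths are those of GENCODE vM21. The deposited gene model of *Sst* spans less (chr16:23889580-23890844), so its fragment values are approximate and too high. The total number of fragments is not known, so no counting interval can be given, and the values of *Crh* and *Cort* rest on the fewest fragments.

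*Cck* (ENSMUSG00000032532, chr9:121489824-121495694, minus strand), which encodes cholecystokinin and was the most abundant of the 10, was at 292 FPKM in WT against 296 FPKM in KO, with a log2 ratio of 0.02. Summed over the 6 peptide genes the level was 611 FPKM in WT against 565 FPKM in KO. *Sst*, *Npy*, *Cort* and *Crh* together were at 275 FPKM in WT against 217 FPKM in KO, 0.789 of the WT level, and these were chosen for the sum after their values were seen. Ratios between single marker genes also differed between libraries. *Sst* was 5.77 times *Pvalb* in WT and 3.62 times in KO, and 3.75 times *Vip* in WT and 2.51 times in KO. None of *Sst*, *Pvalb* and *Vip* reached 1.5-fold, and a balance of cell classes was not tested. The wider lists given below had medians of 0.00 for fast-spiking genes and 0.04 for other class markers. Relative to *Gad1*, *Sst* went from 1.72 to 1.10 and *Crh* from 0.0438 to 0.0206.

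Short transcripts were lower in the KO library in general, and this touched the peptide genes. Genes of at least 10 FPKM whose longest transcript was under 1 kb had a median log2 ratio of -0.12. Of these 400 genes 22.5% were above 0. The 1178 genes with transcripts of 1 to 2 kb had a median of -0.08, the 2419 genes of 2 to 4 kb a median of 0.00, and the 2504 genes of 4 kb and over a median of 0.09, with 73.6% above 0. Transcripts of *Pvalb* (977 bases), *Sst* (721), *Npy* (566), *Cck* (799) and *Cort* (677) were under 1 kb. Less the median of its length class, *Sst* was at -0.22, *Npy* at -0.20, *Cort* at -0.09 and *Crh* at -0.52, so *Crh* no longer passed 1.5-fold. *Pvalb* was then at 0.44, *Vip* at 0.32, *Gad1* at 0.30 and *Cck* at 0.14, with 5 of the 10 genes above 0 and 5 below. This comparison was added after the data were seen.

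Isoforms were compared by the share each took of the summed isoform FPKM of its gene. The isoform shift is the share that moved between isoforms, from 0 for identical shares to 1, and it can be had for 3 of the 10 genes, since the other 7 are listed with 1 isoform. A shift of 0.2 or more was seen in 11.3% of 8677 genes that had 2 or more isoforms and reached 1 FPKM in each library, and in none of the 3. *Gad1*, with 8 listed isoforms of which 2 were at 0 in both libraries, had a shift of 0.0199. Its leading isoform took 61.0% in WT and 59.0% in KO, and the next took 36.4% in both. A minor isoform of *Gad1* was at 0.718 FPKM in WT against 2.73 FPKM in KO. *Gad2* had a shift of 0.0078, with its leading isoform at 99.0% in WT and 99.7% in KO.

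*Pvalb* had the largest shift of the 3, at 0.0925, above the median of 0.0656 over all such genes, but 36.9% of them had a shift as large. Its leading isoform was at 26.3 FPKM in WT against 29.7 FPKM in KO. The minor isoform was at 2.56 FPKM in WT against 6.58 FPKM in KO, 8.87% and 18.1% of the gene. Of the 7.41 FPKM by which *Pvalb* was higher in KO, the minor isoform accounted for 4.02 FPKM. The isoform table gives no transcript identifiers, so which transcript this is was not established, and isoform FPKM is an estimate that divides shared fragments.

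**Figure D3:**
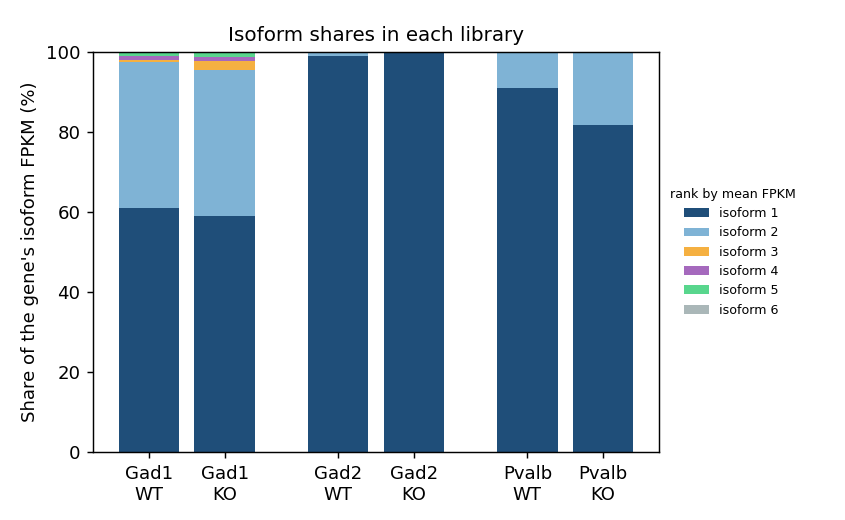
Share of each isoform in the summed isoform FPKM of *Gad1*, *Gad2* and *Pvalb*, in percent, for the WT and the KO library (1 library each). The lighter part of the *Pvalb* bars, its minor isoform, takes 8.87% in WT and 18.1% in KO, whereas the bars of *Gad1* and *Gad2* are nearly alike.

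Receptors for these peptides were measured in the same libraries. Of 18 listed receptors and binding proteins 12 were measured, with a median log2 ratio of 0.21 and 9 above 0, where 54.4% of all measured genes were. Less the median of the length class of each gene, the median was 0.14. None was past 1.5-fold higher and 1 was past 1.5-fold lower (1 and 1 with each library scaled to the same total). Of all measured genes 1.36% were past it higher and 1.3% lower with the deposited scaling. *Npy2r*, the receptor that on *Npy* terminals acts as an autoreceptor, was at 3.62 FPKM in WT against 1.46 FPKM in KO, with a log2 ratio of -0.91. The other receptors of neuropeptide Y were *Npy1r*, at 17.1 FPKM in WT against 20.1 FPKM in KO, and *Npy5r*, at 3.68 and 3.07 FPKM. *Npy2r* thus differed while its relatives were closer to level.

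For the CRH system, ligand and receptor lay on opposite sides. *Crhr1*, the main receptor of CRH in cortex, was at 5.61 FPKM in WT against 8.40 FPKM in KO, with a log2 ratio of 0.51. *Crhbp*, the secreted protein that binds CRH and is itself made in interneurons, was at 10.4 FPKM in WT against 7.83 FPKM in KO, with a log2 ratio of -0.37. Neither passed 1.5-fold with the deposited scaling, and with each library scaled to the same total *Crhr1* did, at 0.63.

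The 4 measured somatostatin receptors were all slightly higher in KO, although less the median of its length class *Sstr3* was level, at 0.00. *Sstr1* was at 5.65 FPKM in WT against 6.69 FPKM in KO, *Sstr2* at 8.16 and 8.51 FPKM, *Sstr3* at 4.76 and 5.16 FPKM, and *Sstr4* at 7.23 and 9.55 FPKM, the last with a log2 ratio of 0.36. *Cckbr*, the brain receptor of cholecystokinin, was at 30.4 FPKM in WT against 35.9 FPKM in KO. *Vipr1*, a receptor of VIP, was at 7.84 FPKM in WT against 9.22 FPKM in KO, and *Adcyap1r1*, the receptor of the related peptide PACAP, was at 27.3 and 32.9 FPKM. Their log2 ratios of 0.21 and 0.26 were 0.11 and 0.17 less the median of the length class.

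**Figure D4:**
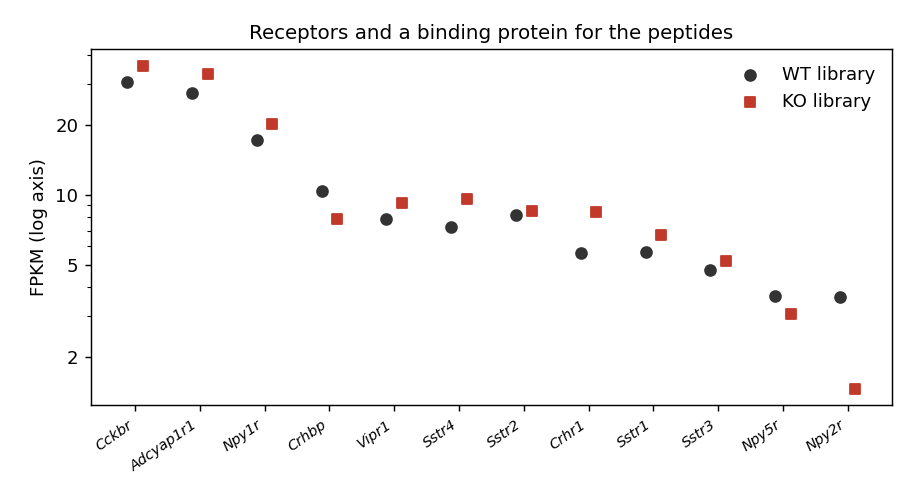
FPKM of the 12 measured receptors and binding proteins on a log axis, in descending order of their mean, for the WT (circle) and the KO library (square). *Npy2r* is the only one whose points are 1.5-fold apart on the scale with 1 FPKM added, at 3.62 FPKM in WT against 1.46 FPKM in KO.

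Genes of the interneuron lineage, mainly transcription factors, were mostly close to level, with more above 0 than below. Of the measured ones 14 were above 0, where 54.4% of all measured genes were, and over the 7 averaging 5 FPKM or more the median was 0.22. Those 7 include *Dlx6os1*, which is not a transcription factor. They also include *Etv1* and *Npas4*, which are in the excitatory and activity-induced lists below as well. *Adarb2*, among the 14, is not a transcription factor either. Of 23 listed, 19 were measured, with a median log2 ratio of 0.08, 1 past 1.5-fold higher and 1 past 1.5-fold lower (3 and 1 with each library scaled to the same total). *Npas4*, a factor induced by neuronal activity, was at 2.47 FPKM in WT against 19.8 FPKM in KO. *Nr2f2*, which marks interneurons from the caudal ganglionic eminence, was at 11.1 FPKM in WT against 5.44 FPKM in KO. *Satb1*, needed for the maturation of somatostatin cells, was at 30.6 FPKM in WT against 45.4 FPKM in KO, with a log2 ratio of 0.55, and *Dlx6*, of the Dlx group that specifies GABA neurons, was at 4.49 and 3.67 FPKM.

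The other class markers were close to level as well. Of 29 listed 21 were measured, with a median of 0.04, none past 1.5-fold higher and 1 past it lower. With each library scaled to the same total, 1 was past it higher and none lower. The gene past it with the deposited scaling, *Lamp5*, a marker of neurogliaform cells also found in upper-layer excitatory neurons, was at 116 FPKM in WT against 70.9 FPKM in KO, with a log2 ratio of -0.71. *Nxph2*, a secreted ligand of neurexins, was at 1.76 FPKM in WT against 3.03 FPKM in KO, and *Slc17a8*, the glutamate transporter of some *Cck* cells, at 1.19 and 1.98 FPKM. *Unc5b*, a netrin receptor, was at 2.51 FPKM in WT against 1.63 FPKM in KO.

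Genes tied to fast spiking lay on both sides of 0. Of 22 listed 21 were measured, with a median of 0.00, none past 1.5-fold higher and 3 past it lower (2 and 2 with each library scaled to the same total). The lowest were *Scn4b*, a sodium channel beta subunit, at 19.3 FPKM in WT against 9.30 FPKM in KO, and *Tac1*, the substance P precursor, at 17.9 and 8.85 FPKM. Both are abundant in striatal neurons too. The remaining gene past 1.5-fold lower was *Vamp1*, at 40.0 FPKM in WT against 25.5 FPKM in KO, with a log2 ratio of -0.63. The part of striatal tissue in these values was not tested. *Ppargc1a*, a coactivator that promotes *Pvalb* transcription, was at 12.7 FPKM in WT against 19.4 FPKM in KO, with a log2 ratio of 0.58, and the potassium channel gene *Kcna2* at 18.4 and 26.5 FPKM. The perineuronal net, the matrix around parvalbumin cells, had 9 measured genes with a median of -0.04 and none past 1.5-fold. Its extremes were *Hapln4*, at 32.2 FPKM in WT against 21.7 FPKM in KO, and *Hapln2*, at 3.35 and 2.01 FPKM, which encode link proteins, against *Tnr*, at 11.1 and 14.4 FPKM, and *Ptprz1*, at 27.9 and 32.2 FPKM.

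Uptake and breakdown of GABA, which follow its release, had 9 measured genes, with a median of 0.17 and none past 1.5-fold. Of these 7 were above 0, where 54.4% of all measured genes were. Less the median of the length class of each gene, the median was 0.08. *Slc38a1*, a glutamine transporter of GABA neurons, was at 33.9 FPKM in WT against 44.2 FPKM in KO, and *Slc6a11*, the astrocytic GABA transporter, at 21.2 and 27.0 FPKM. *Slc6a13*, a GABA transporter of meninges and vessels, was at 2.32 FPKM in WT against 1.85 FPKM in KO, and *Slc38a3*, a glutamine transporter of astrocytes, at 13.7 and 13.4 FPKM. The 15 genes for peptide processing and dense-core granules, through which all 6 peptides pass, had a median of 0.01 and none past 1.5-fold. Among these the convertase gene *Pcsk2* was at 98.7 FPKM in WT against 120 FPKM in KO and *Ptprn2*, which encodes a granule membrane protein, at 73.2 and 89.4 FPKM, whereas *Vgf*, a secreted granin-like precursor, was at 35.5 and 28.2 FPKM and *Ptprn* at 78.9 and 68.8 FPKM.

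Larger differences were found in a list of other neuropeptide genes. The list also holds *Cbln1*, *Cbln2*, *Cbln4* and *Nxph4*, which encode secreted synaptic proteins, so its counts are not of neuropeptides alone. *Cbln4*, at 9.21 FPKM in WT against 4.61 FPKM in KO, is among those counted as lower. Of 29 listed 18 were measured, with a median of -0.26, 2 past 1.5-fold higher and 5 lower. Over the 13 genes averaging 5 FPKM or more the median was -0.08, with 2 higher and 3 lower. *Penk*, the enkephalin precursor, was at 60.5 FPKM in WT against 13.2 FPKM in KO, with a log2 ratio of -2.11, and *Trh*, thyrotropin-releasing hormone, at 1.95 and 0.191 FPKM. *Penk* is also a marker of striatal medium spiny neurons, whose other markers were lower in KO as given below. The part of striatal tissue in the *Penk* values was not tested. *Nppc*, C-type natriuretic peptide, was at 3.75 FPKM in WT against 6.45 FPKM in KO, and *Grp*, gastrin-releasing peptide, at 5.46 and 8.78 FPKM.

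Markers of other tissue and of cell state also differed between the libraries, and they stand beside the values above. Striatal medium spiny neurons make GABA, and the striatum holds *Sst* and *Npy* interneurons of its own. Of 21 markers of medium spiny neurons 19 were measured, all 19 below 0 (18 of 19 when each library was scaled to the same total), with 10 past 1.5-fold lower and a median of -0.61. The sum over all 21 was 292 FPKM in WT against 162 FPKM in KO. No measured marker was at 0, but the limit of 1 FPKM left out *Isl1* and *Six3*. *Isl1* was at 0.378 FPKM in WT against 0 FPKM in KO, and *Six3* at 0.466 and 0.0085 FPKM. *Adora2a* was at 3.89 FPKM in WT against 0.353 FPKM in KO and *Drd2* at 3.44 and 0.392 FPKM, and the nearest to level were *Ebf1*, at 1.20 and 0.975 FPKM, and *Foxp2*, at 4.14 and 3.85 FPKM. All 12 oligodendrocyte markers were below 0, with a median of -0.47, a sum of 1687 FPKM in WT against 1154 FPKM in KO, and 2 past 1.5-fold (0 with each library scaled to the same total), *Mobp* (228 and 144 FPKM) and *Mbp* (679 and 444 FPKM), against *Mog* (21.0 and 15.9 FPKM) and *Aspa* (12.2 and 9.27 FPKM).

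Excitatory cortical markers, which check the labelled tissue, were abundant in both libraries, with a sum of 1371 FPKM in WT against 1364 FPKM in KO over 18 genes and a median of 0.12. The extremes beside *Lamp5* were *Bcl11b*, at 13.6 FPKM in WT against 9.96 FPKM in KO, *Etv1*, at 30.6 and 42.7 FPKM, and *Cux2*, at 18.4 and 32.0 FPKM. Of 24 activity-induced genes 13 were past 1.5-fold higher and 2 lower, with a median of 0.65. *Arc* was at 5.67 FPKM in WT against 58.1 FPKM in KO, *Fos* at 3.22 and 29.6 FPKM, *Inhba* at 2.49 and 0.873 FPKM and *Nptx2* at 19.6 and 10.5 FPKM. Promoters were available for 19 of these genes, and the element shown above was found in 14 of them and the palindrome in 2. A gene was counted if any of its promoters held the sequence, whereas the shares of 20.8% and 1.79% given above are per single promoter. These counts and shares are therefore not alike, and no link between the element and the levels was tested. The part of striatal tissue, of oligodendrocyte content and of activity in the values of the 10 genes was not tested, and with 1 library per genotype they cannot be told apart from genotype.

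**Figure D5:**
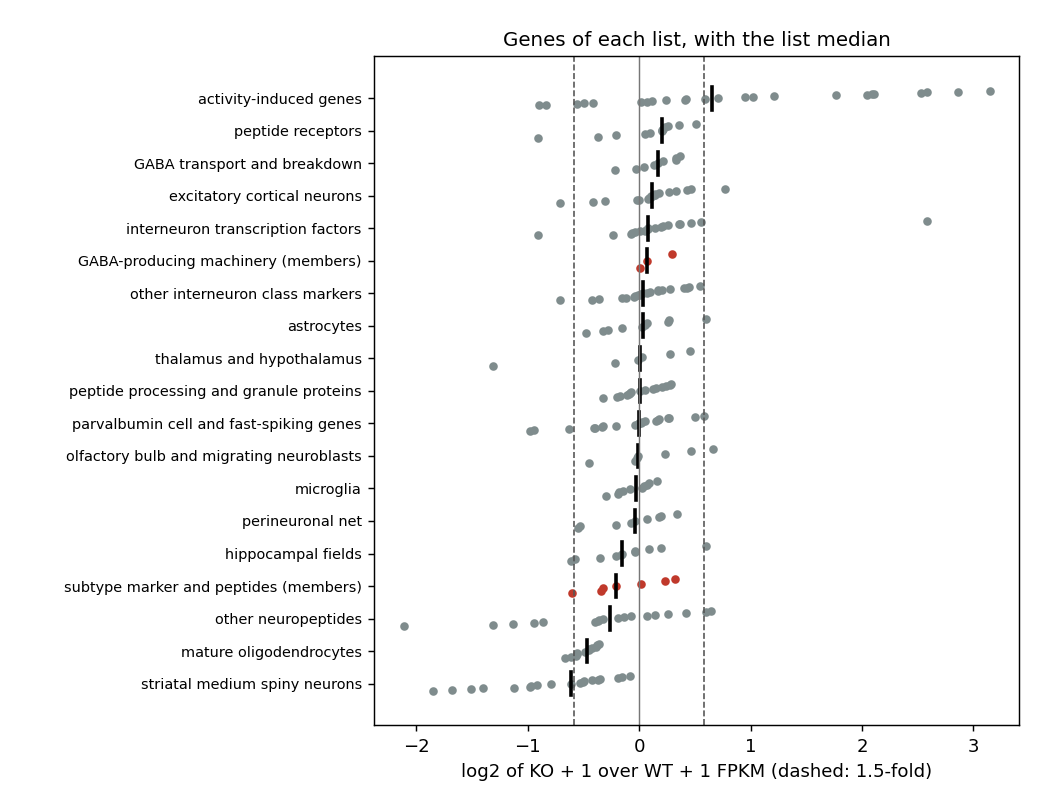
Log2 ratios of KO + 1 over WT + 1 FPKM for the measured genes of each list (points), with the list median (black bar) and 1.5-fold dashed, and the 10 genes described here in red. The red points lie between -0.60 and 0.32, whereas striatal markers reach -1.85 and activity-induced genes 3.15.

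The 6 measured genes of thalamus and hypothalamus had a median of 0.01, with *Rora* at 13.6 FPKM in WT against 19.0 FPKM in KO, *Tcf7l2* at 1.10 and 1.54 FPKM, and *Lef1* at 2.56 and 2.06 FPKM beside *Trh*. The 11 of hippocampal fields had a median of -0.15, with *Cpne7* at 13.7 and 8.63 FPKM, *Wfs1* at 25.1 and 16.5 FPKM, and *Man1a* at 11.8 and 13.6 FPKM beside *Grp*. The 7 of olfactory bulb and neuroblasts had a median of -0.01, with *Dcx*, a microtubule-associated protein of migrating neurons, at 12.8 and 20.8 FPKM, *Synpr* at 49.5 and 36.1 FPKM and *Meis2* at 37.5 and 36.5 FPKM. The 10 astrocyte genes had a median of 0.04, with *Gjb6* at 22.9 and 35.2 FPKM, *Aldh1l1* at 12.1 and 14.8 FPKM, *S100b* at 45.0 and 35.7 FPKM and *Gfap* at 36.3 and 25.8 FPKM. The 10 microglia genes had a median of -0.03, with *Itgam* at 3.54 and 4.08 FPKM, *P2ry12* at 29.0 and 30.9 FPKM, *C1qb* at 15.5 and 13.5 FPKM and *Tmem119* at 4.18 and 3.21 FPKM.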

How the data were processed

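RNA of 1 WT and 1 KO cortex library was analysed. The authors' deposited gene and isoform tables give FPKM per library, made with TopHat and Cufflinks on GRCm38 by the submitters' processing notes, with versions not given in the sources used here. The labels' extraction note covers cortex or hippocampus and names another kit than the paper. The tables' p-values, q-values, ratios and term lists are the authors' own comparisons and were not used. Read depth is unknown. Among 1951 genes with 1 isoform under 0.3 FPKM the commonest KO to WT ratio was 0.889, as single fragments would give with a KO library 1.125 times as deep.

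Log2 ratios were computed as KO + 1 over WT + 1 FPKM for genes averaging 1 FPKM or more, and 1.5-fold and 2-fold differences were counted. The steps were tested on simulated data, with 2-fold changes set only in genes averaging 10 FPKM or more and a small spread unrelated to level. That run does not bear on calls at lower levels, where *Crh* and *Cort* lie. Positions and transcript lengths came from GENCODE vM21 (lengths for 99.1% of genes of at least 10 FPKM) and promoters from RefSeq GRCm38.p6. Python 3.11.15, pandas 2.3.3 and numpy 2.4.6 were used. The 10 genes, the lists and the settings were chosen with earlier results of these data known. From each list, the 2 highest and the 2 lowest measured genes and the receptors of the peptides are named, and *Slc17a7* was added as a scale. *Vamp1* and some other genes are named to qualify the counts of a list. *Lamp5* is 6330527O06Rik in the deposited table. Some genes belong to several lists. Alternatives were other added values, other minimums, other scalings and the sum of isoforms.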

Additional observations from a re-analysis of the deposited data

How the results depend on the processing

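The count of 1 gene past 1.5-fold (*Crh*) rested on the scaling and the minimum. It was 0 when each library was scaled to the same total over genes above 0 in both, 0 when a mean of at least 5 FPKM was required, which left 8 genes and took *Crh* out, and 0 when the median of the length class was taken away, an alternative chosen after seeing the data. The scaling to the same total raised the median of all measured genes from 0.02 to 0.15, and relative to that median *Crh* was at -0.62 under both scalings. With 0.1 FPKM added 310 measured genes were past 1.5-fold higher and 326 lower, with nothing added 289 and 300, against 177 and 169 with 1 FPKM added. Values with no replicates were called moved when they shifted by 1.5-fold or an isoform shift by 0.1, and 152 of 155 values did not. The 3 that moved were the counts of 0 above. For a ratio this limit is wide, since it exceeds the ratio of every gene of the 10 but *Crh*. A ratio near 0 could thus change sign and still count as not moved, so 152 of 155 is no measure of robustness. Over 6 alternatives 8 of the 10 genes kept their sign, the exceptions being *Gad2* and *Slc32a1*, and *Crh* ranged from -0.79 to -0.47, *Sst* from -0.35 to -0.19 and *Pvalb* from 0.31 to 0.46. No paired analysis was possible because each genotype has 1 library, and for the same reason no library could be left out. FPKM hides the depth, which limits *Crh* and *Cort* most.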
